A study of Arabidopsis thaliana with 4 samples.

Results

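The genes described here encode enzymes that act on allantoin and its products in the last part of purine catabolism, with *ALN*, the gene disrupted in the *aln-1* mutant, at their head. They were chosen by locus as AT4G04955 (*ALN*), AT4G20070 (*AAH*) and AT5G43600, by a rule that did not use their values. Earlier results of these data were known when the choice was made. Of these 3 loci, 2 had a probe set listed with that gene alone. AT5G43600, which the gene table of assembly TAIR10.1 calls *UAH*, had none in the annotation used and was not analysed here. The choice had named that locus *UGLYAH*, a symbol that the same table gives to AT4G17050. The gene that carries this symbol had a probe set, and it is described as the third gene. The 3 genes stand among 21761 genes or probe sets tested, of which 12657 had a name.

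Purines are broken down in plants by oxidation of xanthine to uric acid, which is converted to allantoin. Allantoinase, the product of *ALN*, opens the ring of allantoin to give allantoate. Allantoate amidohydrolase, from *AAH*, removes ammonia and carbon dioxide from allantoate. Ureidoglycine aminohydrolase, from *UGLYAH*, releases ammonia from the ureidoglycine so formed, and ureidoglycolate amidohydrolase, from *UAH*, completes the route to glyoxylate. The pathway recycles nitrogen from nucleotides, and its intermediates allantoin and allantoate are the ureides that tropical legumes transport.

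The measurements came from Affymetrix ATH1 arrays of biotin-labelled cRNA, 2 from *aln-1* seedlings and 2 from wild-type (WT) seedlings, both in the Col-0 background. *aln-1* is a T-DNA insertion line of *ALN*, and this single line stands for loss of the gene in these data. All seedlings were grown aseptically on solid medium with 1% sucrose at 22 °C, as the sample labels state it, in cycles of 16 h light and 8 h darkness, and aerial parts were taken 2 weeks after germination. Neither genotype received a treatment, and the controls carried no insertion that the labels name. Whether the replicates are separate cultures is not stated, so the p-values speak only of the spread among the arrays, and that spread may be technical. Having 4 arrays limits how precise any value can be.

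Each probe set has a single normalized score on an array, on a log-like scale whose base no source names. Differences are therefore given in deposited units, as *aln-1* minus WT, and not as fold changes. They should not be read as log2 ratios. The scores of all genes or probe sets had array SDs between 0.62 and 0.657, and across genes the replicate arrays correlated at 0.981 in *aln-1* and at 0.987 in WT, above the 0.901 to 0.947 of arrays from different genotypes. A lower score in bulk tissue can come from fewer cells that express a gene or from less RNA in each cell, and these cannot be told apart. Of the leaf markers listed, 1 of 12 had a named probe set. This was the Rubisco activase gene *RCA*, whose score was above those of 99.5% to 99.9% of the genes or probe sets on each array and was lower in *aln-1*, with a difference of -0.29 (adjusted p = 0.039 from limma). Of the root markers listed, 1 of 9 had one. This root hair expansin gene, *EXPA7*, was higher in *aln-1* by 0.25 (adjusted p = 0.0431 from limma), with 35.3% and 41.3% of genes below it on the *aln-1* arrays, against 18.3% and 19.2% on the WT arrays. Both calls were lost without *aln-1* replicate 2 (adjusted p = 0.0868 for *RCA* and 0.108 for *EXPA7*) and without either WT array (0.142 to 0.212 for *RCA*, 0.182 and 0.187 for *EXPA7*). The part of tissue composition in the results below was not tested.

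The *ALN* transcript fell in *aln-1*, while those of *AAH* and *UGLYAH* did not pass the test. For *ALN* the normalized score was -0.0466 and 0.00508 on the *aln-1* arrays, against 0.367 and 0.442 on the WT arrays. Both *aln-1* arrays lay below both WT arrays, and the gap between the nearest arrays of the genotypes was 0.362. The difference of the means was -0.43 with a standard error of 0.05, and its 95% interval ran from -0.55 to -0.30 (adjusted p = 0.0116 from limma). With the arrays centred on their medians and scaled to an SD of 1, the difference of *ALN* was -0.63. The position of the *ALN* probes relative to the insertion was not analysed here, so the fall bears on the array labels only as far as these probes report the disrupted transcript. The call rests on both WT arrays, since without WT replicate 1 the adjusted p was 0.0845, with a difference of -0.46, and without WT replicate 2 it was 0.0725, with a difference of -0.39.

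*AAH*, which acts directly on the product of allantoinase, had scores of 0.730 and 0.847 on the *aln-1* arrays, against 0.565 and 0.688 on the WT arrays. The genotypes did not overlap, but the lower *aln-1* array stood only 0.0422 above the higher WT array. The mean was 0.789 ± 0.0831 in *aln-1* and 0.626 ± 0.0865 in WT (SD, n = 2 each). Their difference of 0.16 had a standard error of 0.07 and a 95% interval from -0.01 to 0.33, and it did not pass the threshold (adjusted p = 0.16 from limma). Within each genotype, replicate 2 had the higher score.

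*UGLYAH*, which acts on the product of *AAH*, had scores of 0.369 and 0.276 on the *aln-1* arrays, against 0.370 and 0.438 on the WT arrays. The higher *aln-1* array and the lower WT array were apart by 0.000485, so the genotypes all but touched. The mean was 0.322 ± 0.066 in *aln-1* and 0.404 ± 0.0487 in WT (SD, n = 2 each). The difference of -0.08 had a standard error of 0.06, a 95% interval from -0.22 to 0.06 and an adjusted p of 0.347 from limma.

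**Figure D1:**
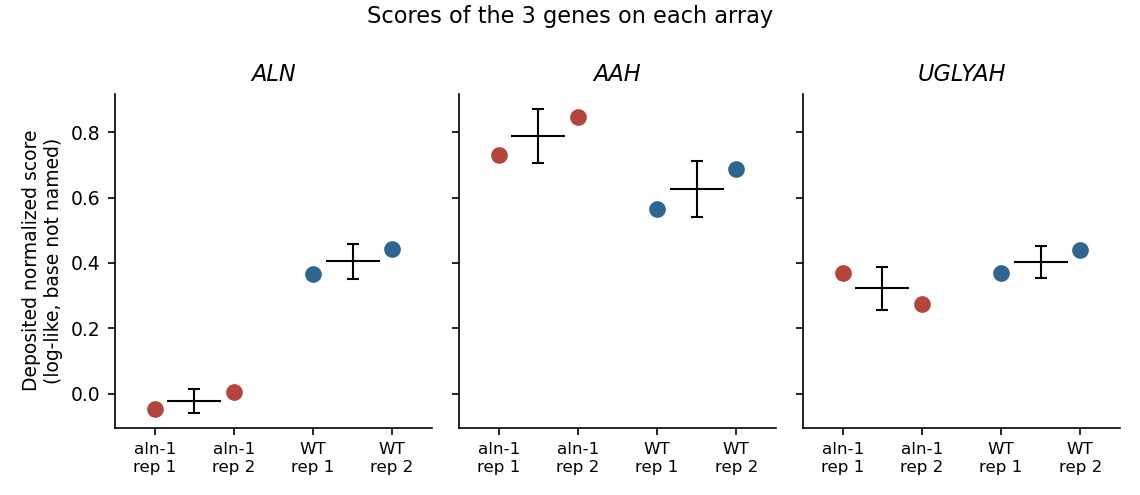
Deposited normalized score (vertical axis, log-like units with no named base) of *ALN*, *AAH* and *UGLYAH* on the 2 *aln-1* arrays (red) and the 2 WT arrays (blue), with black marks for the mean ± SD of each genotype. The *ALN* scores of *aln-1*, -0.0466 and 0.00508, lie well below those of WT, while the *UGLYAH* scores of the genotypes come within 0.000485 of each other.

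Along the order of the enzymes the differences were thus -0.43 for *ALN*, 0.16 for *AAH* and -0.08 for *UGLYAH*, and 1 of the 3 genes passed the adjusted p. Over all 21761 genes or probe sets 15.6% passed it, 7.42% as higher in *aln-1* and 8.17% as lower. These shares stand for 1614 and 1777 genes or probe sets with all arrays. The counts rose without *aln-1* replicate 1 and fell without any other single array. Such a fit has 1 array in a genotype and fewer degrees of freedom. The shares are thus uncertain, and their move cannot be laid to the values of the array left out. Arrays of the genotypes that do not overlap were common, at 66.8% of all genes or probe sets, so the separation of all 3 genes is not particular to them. The interval of *ALN* lies wholly below those of *AAH* and *UGLYAH*, whose intervals overlap. To compare the changes within arrays, the score of one gene was subtracted from that of another on the same array, where only the shift between genotypes can be read. The *ALN* score minus the *AAH* score was -0.776 and -0.842 on the *aln-1* arrays, against -0.198 and -0.245 on the WT arrays, a shift of -0.588. For *ALN* minus *UGLYAH* the values were -0.416 and -0.271 in *aln-1*, against -0.0025 and 0.00378 in WT, a shift of -0.344. For *AAH* minus *UGLYAH* they were 0.361 and 0.572 in *aln-1*, with 0.196 and 0.249 in WT, a shift of 0.244. The genotypes did not overlap in any of these 3 pairs, but how common this is among pairs of genes was not examined. The pairs share their genes, so they are not 3 separate observations. An exact permutation test, two-sided, gave p = 0.333 for each, which is the smallest value that 2 arrays against 2 allow.

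The place of a gene on its own array is a description that does not depend on the scaling between arrays. *ALN* had 38.6% and 41.5% of the genes or probe sets below it on the *aln-1* arrays, against 60.5% and 64.3% on the WT arrays. It thus stood in the lower part of the scores in *aln-1* and in the upper part in WT. In *aln-1* it lay below the array medians of 0.155 and 0.157 and above the minima of -1.01 and -0.776. An array minimum is not a background level, and no background level was examined. Whether *ALN* transcript remained in *aln-1* was therefore not tested. *AAH* had 77.9% and 81.8% below it on the *aln-1* arrays and 71.2% and 76.2% on the WT arrays. For *UGLYAH* these shares were 61.2% and 56.2% in *aln-1*, against 60.6% and 64.1% in WT, and here the genotypes overlapped. Probe sets differ in how well they hybridise, so these places do not order the 3 transcripts by abundance.

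**Figure D2:**
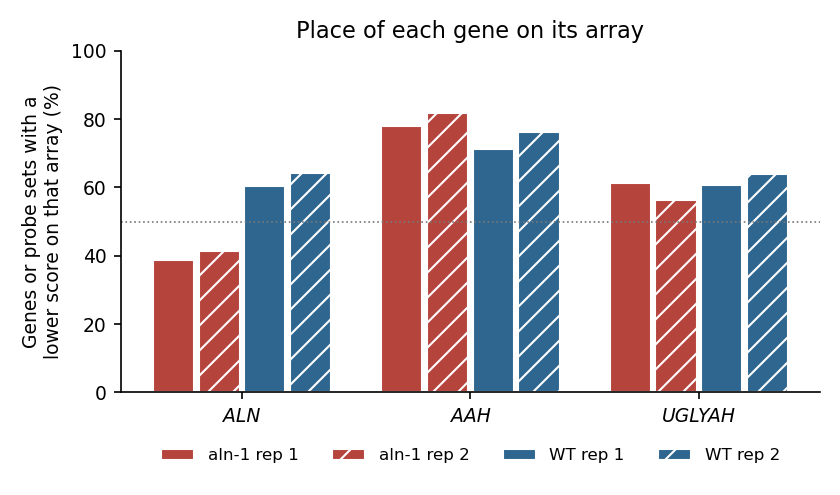
Share of genes or probe sets with a lower score on the same array (vertical axis, percent) for *ALN*, *AAH* and *UGLYAH*, with *aln-1* arrays in red, WT arrays in blue, replicate 2 hatched and a dotted line at 50%. *ALN* stands at 38.6% and 41.5% in *aln-1* and at 60.5% and 64.3% in WT, on either side of the line.

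Among all differences, that of *ALN* was far out but not extreme. Of all genes or probe sets, 2.73% had a lower difference, and 6.72% a larger one in absolute size. For *AAH*, 31.1% had a larger absolute difference, and for *UGLYAH* 56.9%. The median difference over all genes or probe sets was -0.03, the central part from the 5th to the 95th percentile ran from -0.33 to 0.37, and only *ALN* of the 3 genes lay outside it.

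**Figure D3:**
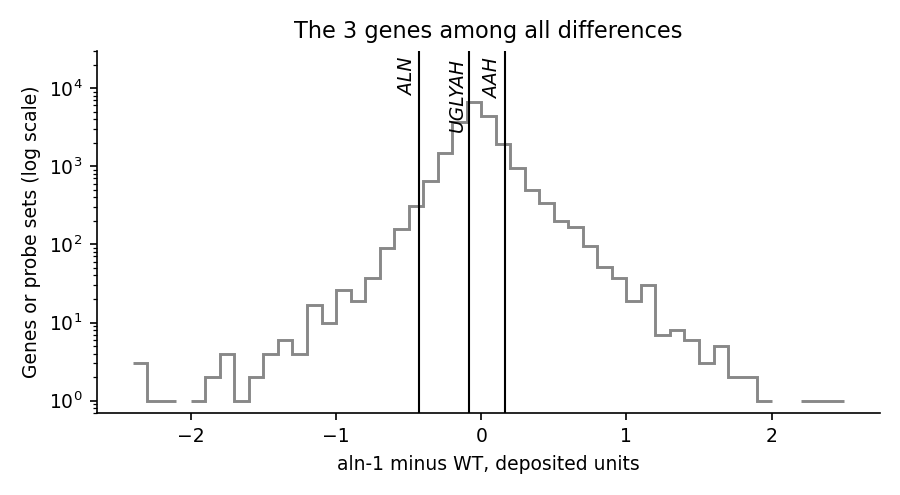
Number of genes or probe sets (vertical axis, log scale) by their difference, *aln-1* minus WT, in deposited units (horizontal axis), with lines at the differences of *ALN* (-0.43), *UGLYAH* (-0.08) and *AAH* (0.16). *AAH* and *UGLYAH* lie within the bulk of the distribution, and *ALN* on its left flank.

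The direction of each difference was kept when the scaling, the variance model, the filter or the array set was changed. Leaving out arrays moved *AAH* between 0.10 and 0.22 and *UGLYAH* between -0.13 and -0.03. Neither passed the threshold in any setting, with adjusted p values of at least 0.0987 for *AAH* and at least 0.203 for *UGLYAH*.

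**Figure D4:**
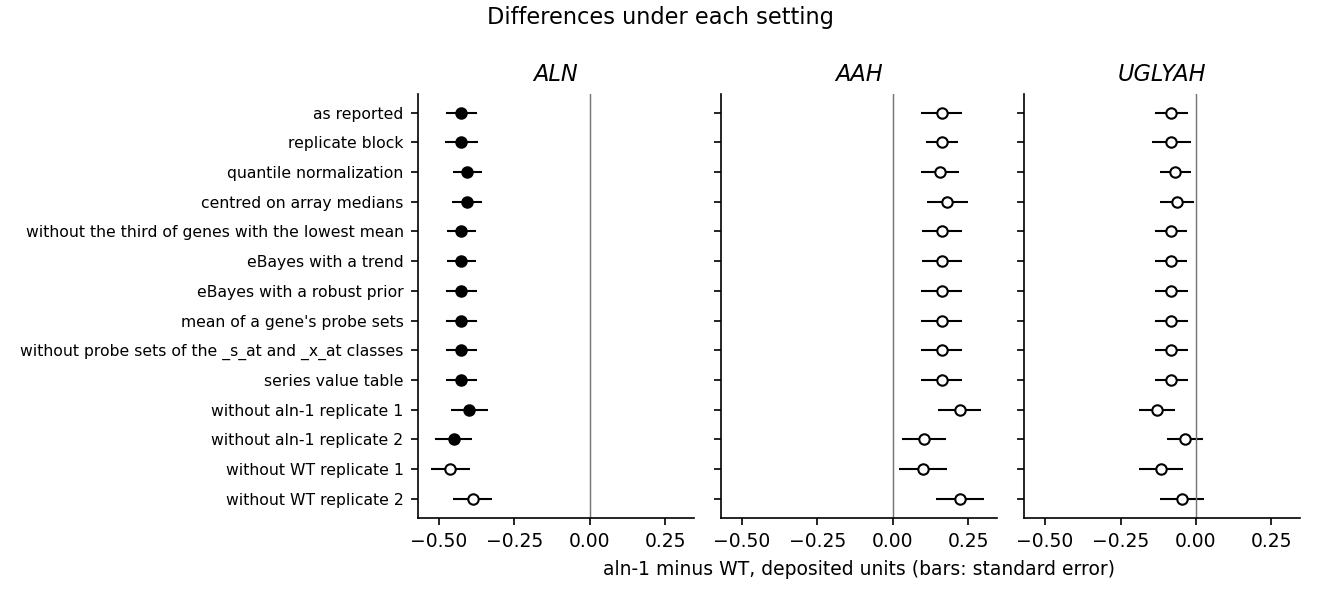
Difference, *aln-1* minus WT, in deposited units (horizontal axis) of *ALN*, *AAH* and *UGLYAH* under each setting on the vertical axis, with bars for the standard error and filled points for an adjusted p under 0.05. The points of *ALN* are filled except where a WT array is left out, while all points of *AAH* and *UGLYAH* are open.

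The 3 genes were set beside other genes of purine and nitrogen metabolism from lists for purine ring catabolism, nucleoside breakdown and salvage, purine synthesis, ureide permeases, the molybdenum cofactor of xanthine dehydrogenase, pyrimidine catabolism, urea use, ammonium assimilation, glyoxylate use and the hydrolases of indole-3-acetic acid (IAA) conjugates. Of 97 genes on these lists, 14 had a named probe set, of which 2 were higher, 2 were lower and 10 did not pass the adjusted p. The 14 include *ALN*, *AAH* and *UGLYAH*, and *ALN* is among the lower ones. Over all genes or probe sets 15.6% passed, 7.42% as higher in *aln-1* and 8.17% as lower. The median difference of the 14 genes was -0.003, beside -0.03 for all genes or probe sets. The permease, pyrimidine, ammonium and IAA conjugate lists had no gene with a named probe set, and neither xanthine dehydrogenase gene had one, so the steps that form allantoin and those that use the released ammonia were not analysed here.

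Of the purine ring catabolism list, 4 of 10 genes were measured, with 1 higher, 1 lower and 2 not called. The lower gene was *ALN*, and those not called were *AAH* and *UGLYAH*. The gene that rose, AT2G32150, was placed on the list by locus under the name XMPP. The tables used here give it no symbol and do not give its place on the list, so a role in breaking the purine ring is not shown. Its scores were 1.92 and 2.10 on the *aln-1* arrays, against 1.24 and 1.34 on the WT arrays. Both *aln-1* arrays were above both WT arrays, and the difference of 0.72 (standard error 0.08, adjusted p = 0.00953 from limma) was the largest in absolute size of the 14 measured list genes. It was above 98.9% of all differences. Without WT replicate 1 the difference was 0.67, and without WT replicate 2 it was 0.77. The call was lost in both of these fits, which have 1 WT array and fewer degrees of freedom.

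Both measured genes of nucleoside breakdown and salvage, of 12 listed, stayed short of the threshold. *FAC1*, which encodes AMP deaminase at the entry to purine breakdown, had scores of 0.915 and 0.885 in *aln-1*, against 0.837 and 0.942 in WT, and the genotypes overlapped. Its difference of 0.01 had a 95% interval from -0.13 to 0.15 (adjusted p = 0.91 from limma). *HGPT*, whose product returns hypoxanthine and guanine to nucleotides, had scores of 0.0963 and 0.124 in *aln-1*, against 0.0371 and 0.0347 in WT. The difference of *HGPT* was 0.07, with a 95% interval from -0.03 to 0.18 (adjusted p = 0.275 from limma).

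In the purine synthesis list 5 of 16 genes were measured, none of them with a symbol in the tables used, which give neither their role nor their place on the list, and 1 was higher, 1 was lower and 3 were not called. AT1G79470 had scores of 0.351 and 0.411 in *aln-1*, against 0.167 and 0.175 in WT, and rose by 0.21 (standard error 0.05, adjusted p = 0.0418 from limma). AT1G31220 had scores of 0.184 and 0.159 in *aln-1*, against 0.404 and 0.352 in WT, and fell by 0.21 (standard error 0.05, adjusted p = 0.0425 from limma). Their changes were of like size and opposite direction. Both calls are close to the threshold, and that of AT1G31220 is lost after centring the arrays on their medians (adjusted p = 0.0533). Leaving out any 1 array also ends it, with adjusted p values from 0.0607 to 0.23. For AT1G79470 the call is lost when either WT array is left out (adjusted p = 0.213 without replicate 1 and 0.169 without replicate 2) or *aln-1* replicate 2 (0.115). The other members had differences of -0.13 for AT1G16350, -0.02 for AT2G35040 and 0.09 for AT1G63660, with adjusted p values from 0.114 to 0.734.

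From the lists for urea, glyoxylate and the molybdenum cofactor, 1 gene each was measured. The urease gene *URE*, 1 of 7 genes listed for urea use, had scores of 0.0634 and 0.0399 in *aln-1*, against 0.0909 and 0.0444 in WT. The genotypes overlapped, and the difference was -0.02, with a 95% interval from -0.13 to 0.10 (adjusted p = 0.827 from limma). *ICL*, which encodes the isocitrate lyase that forms glyoxylate and was 1 of 9 genes listed for glyoxylate use, had scores of -0.221 and -0.177 in *aln-1*, against -0.0381 and 0.0909 in WT. Its arrays did not overlap between genotypes, but the difference of -0.23 did not pass (standard error 0.06, adjusted p = 0.0632 from limma). AT2G43760, 1 of 8 genes on the molybdenum cofactor list and likewise without a symbol or a role in the tables used, had a difference of 0.07 (adjusted p = 0.314).

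**Figure D5:**
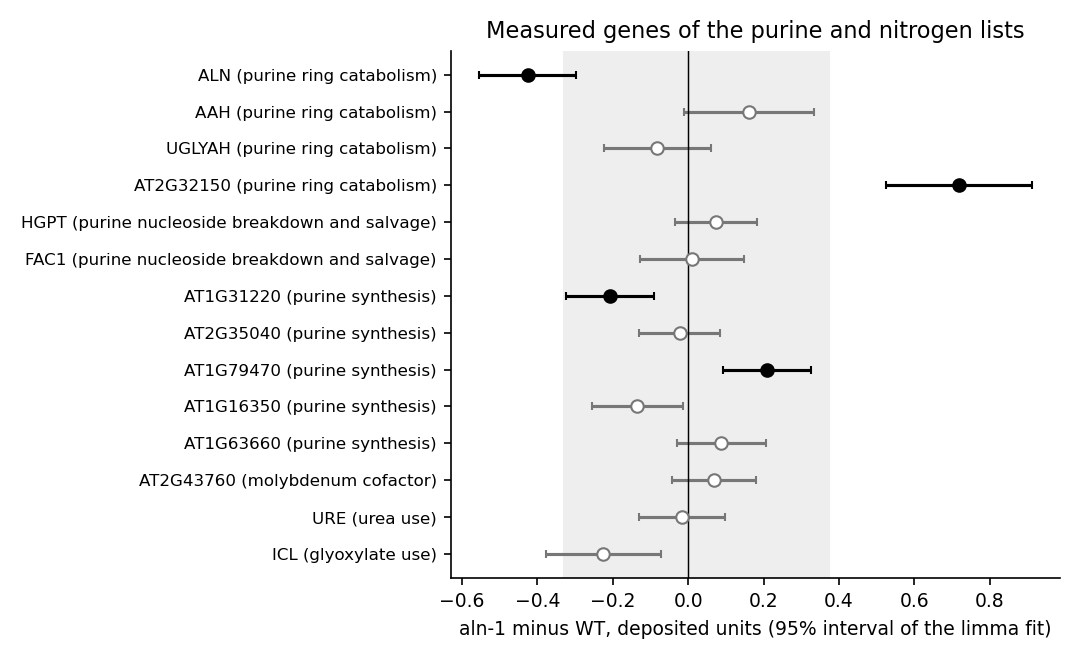
Difference, *aln-1* minus WT, in deposited units (horizontal axis) with 95% intervals of the limma fit for the 14 measured genes of the purine and nitrogen lists (vertical axis), filled black where the adjusted p was under 0.05, with the range from the 5th to the 95th percentile of all genes or probe sets in grey. *ALN* (-0.43) and AT2G32150 (0.72) stand outside the grey range on opposite sides.

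*ALN*, *AAH* and *UGLYAH* all lie on chromosome 4. For each of them the 5 annotated genes on either side were examined. Of the 10 neighbours of *ALN*, 2 had a named probe set, AT4G04940 with a difference of -0.09 (adjusted p = 0.205 from limma) and AT4G04980 with one of 0.09 (adjusted p = 0.526). AT4G04940 is the nearer one, with a single annotated gene between it and *ALN*. Its scores were 0.133 and 0.165 in *aln-1*, against 0.248 and 0.230 in WT. None of the 3 measured neighbours of *AAH* and none of the 5 of *UGLYAH* passed the adjusted p, with differences from -0.03 to 0.17 and from -0.15 to -0.01. At an unadjusted p under 0.05 there were 2 of these 10 measured neighbours, both beside *UGLYAH*, against 35.3% of all genes or probe sets. With 10 measured neighbours, these shares are too coarse to compare.

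The genes most like each of the 3 were taken as the 5 named genes at the smallest Euclidean distance over the 4 scores, a description that weighs level and genotype pattern together and carries no test. For *ALN* these were AT5G56730, *HLL*, which encodes a mitochondrial ribosomal protein, AT1G74300, AT3G22060 and AT3G43960, at distances from 0.0508 to 0.134. AT5G56730, the nearest, had scores of -0.0433 and 0.0347 in *aln-1*, against 0.356 and 0.403 in WT. The differences of the 5 genes ran from -0.47 to -0.32. They had to lie near the -0.43 of *ALN*, since the genes were picked by these same scores. For *AAH* they were AT3G07320, *UGT71C5*, whose product adds glucose to abscisic acid, AT1G53035, AT5G55960 and AT1G35190, at distances from 0.0684 to 0.0911. For *UGLYAH* they were AT2G45670, AT1G19140, AT3G15460, *CCB3*, which serves in assembly of the cytochrome b6f complex, and AT1G52670, at distances from 0.0305 to 0.0472. With 4 arrays, such distances separate few patterns.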

How the data were processed

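The authors renormalized raw ATH1 array data of an earlier experiment with a three-parameter lognormal model (SuperNORM data service) and deposited 1 normalized score for each probe set and array. The version, the probe summary and the base of the logarithm are not stated in any source used. The deposited table also holds 2 columns of the authors' p-values from a two-way ANOVA, which were not used. No fold threshold was applied, since the log base is not stated and was not inferred here. The ANOVA could not be rebuilt from single scores.

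Of 22810 probe sets, 64 controls and 842 without values were left out. Probe sets were named from the platform annotation through gene IDs of TAIR10.1 (12800 matched, 69 with 1 gene not matched, 458 with several genes, 8577 with none listed), and those without a single matched gene were tested under their own ID. Where a gene had more than 1 probe set, that with the highest mean was kept. The linear model of limma 3.58.1 (R 4.3.3), moderated by eBayes, had a single genotype term, prior degrees of freedom of 3.11 and Benjamini-Hochberg adjustment over 21761 genes or probe sets, at a threshold of 0.05. The procedure was also run on simulated data with independent noise and few changed genes. That setting is unlike these data, so the run does not bear on the calls above. The text names the 3 genes, measured members of the metabolic lists, the 5 nearest named genes in score and named genes among 5 neighbours on either side. *UAH* was planned and *UGLYAH* took its place. Members and lists were chosen with earlier results of these data known.

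The fit was repeated with the replicate number as a block, other scalings, a filter on low means, other variance models, other handling of probe sets, the series' value table and leaving out each array.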

Additional observations from a re-analysis of the deposited data

How the results depend on the processing

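Of 23 gene differences, 21 were fitted under all 14 alternatives, and those of *EXPA7* and AT4G04980 under 13, since the filter on low means leaves these genes out. The direction was the same in every alternative fitted for 20 of the 23. The difference of *ALN* ran from -0.46 to -0.39 with 1 array left out, and from -0.43 to -0.41 under the settings that keep the deposited units and all arrays. The settings that ended its call were those without a WT array. With 1 array left out, between 73 and 2114 genes or probe sets were called higher and between 61 and 2373 lower (1020 and 881 without *aln-1* replicate 2, 73 and 61 without WT replicate 1, 288 and 257 without WT replicate 2). A genotype then has 1 array, assumed to vary like the other genotype, and fewer degrees of freedom remain. *FAC1* had a difference of -0.0047 after quantile normalization and from -0.042 to 0.063 with 1 array left out. *URE* had 0.0040 after quantile normalization, 0.0022 after median centring, 0.0083 after centring and division by array SDs, and -0.039 to 0.0072 with 1 array left out. AT4G04980 ran from -0.029 to 0.21 with 1 array left out. None of these 3 genes was called in any setting in which it was fitted. The labels give both genotypes the same replicate numbers, but nothing says that they pair the arrays, and the deviations of same-numbered arrays correlated across genes at 0.0412. With the replicate number as a block, *ALN* had an adjusted p of 0.00825, *AAH* 0.0987 and *UGLYAH* 0.427, AT1G31220 and AT1G79470 missed the threshold (0.0554 and 0.0557), as did *EXPA7* (0.0508), and 1919 genes or probe sets were called higher and 1856 lower. *RCA* and *EXPA7* were not called without *aln-1* replicate 2 or either WT array. The 5 genes nearest to *ALN* were not called without either WT array.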
